A study of Homo sapiens with 6 samples.

Results

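Integrin and laminin genes were examined in SW480 cells, an established human colorectal adenocarcinoma line, given Amuc_0904 (3 libraries) or buffer (3 libraries). All 6 libraries carried the same wild-type genotype label, and the labels state neither dose nor exposure time. They do not say whether libraries of a group came from separate cultures, so p-values measure only the spread between these libraries. Amuc_ is the locus tag prefix of Akkermansia muciniphila, a mucus-dwelling gut bacterium, and the labels say no more of what the agent is. Members were chosen by symbol, and 37 genes, of 60664 in the table, are reported, each of whose symbols names an integrin alpha chain (18 genes), an integrin beta chain (8 genes) or a laminin alpha, beta or gamma chain (11 genes).

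Integrins are surface receptors made of 1 alpha and 1 beta chain, and laminins are cross-shaped proteins made of 1 alpha, 1 beta and 1 gamma chain. Laminins form the basement membrane sheet under an epithelium, and epithelial cells hold on to that sheet through integrins whose tails connect to actin or, in hemidesmosomes, to keratin filaments. Colorectal epithelial cells both secrete laminin and bind it, so receptor and ligand chains can be read in the same RNA.

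A chain was taken as expressed when its level was at least 1 TPM (a length-scaled share of a library's transcripts) in at least 3 libraries. By this rule 18 of the 37 genes were expressed, and all 18 were above 1 TPM in all 6 libraries. The expressed set comprised 8 integrin alpha genes (ITGA1, ITGA2, ITGA3, ITGA5, ITGA6, ITGA7, ITGAE and ITGAV), 4 integrin beta genes (ITGB1, ITGB2, ITGB4 and ITGB5) and 6 laminin genes (LAMA3, LAMA5, LAMB1, LAMB2, LAMB3 and LAMC1). The lowest expressed chain was ITGB2, with 1.32 to 1.78 TPM over the 6 libraries. The highest levels among chains outside the rule were those of the platelet chain ITGA2B, at 0.26 to 1.26 TPM, and the myeloid chain ITGAM, at 0.15 to 1.22 TPM. ITGA4, ITGA8 and ITGAD were listed at 0 in every library. The other chains outside the rule (ITGA9, ITGA10, ITGA11, ITGAL, ITGAX, ITGB3, ITGB6, ITGB7, ITGB8, LAMA1, LAMA2, LAMA4, LAMB4 and LAMC3) stayed under 1 TPM in each library.

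The libraries differed in more than the treatment label. Between 14244 and 14420 genes reached 1 TPM in the Amuc_0904 libraries, against 14481 to 14586 in the buffer libraries. A slope with transcript GC content was fitted to each gene's log2 deviation from its mean over the 6 libraries. It ran from -0.112 to 0.002 per 10 percentage points in the Amuc_0904 libraries and from 0.005 to 0.093 in the buffer libraries. By construction these slopes balance over the 6 libraries, so their signs are relative. The groups did not overlap in this slope, which is computed from expression itself. A technical source and a response to the treatment cannot be told apart here. Epithelial markers fitted the label: KRT8 averaged 3040 TPM in Amuc_0904 and 3484 TPM in buffer libraries, and EPCAM 193 and 221.5 TPM in the same order of groups, although the intestinal genes VIL1 and CDH17 were below 1 TPM in the mean of each group. The intestinal transcription factor CDX2 averaged 18.7 ± 0.529 TPM in Amuc_0904 and 28.0 ± 5.22 TPM in buffer libraries without overlap, and did not pass (log2 fold change -0.54, limma adjusted p = 0.077). The leukocyte marker PTPRC, the fibroblast marker DCN and the endothelial marker KDR were listed at 0 in every library. Other markers of these lists were detected, with CD14 at 1.06 to 2.24 TPM and COL1A1 at 1.28 to 3.16 TPM. The leukocyte marker CD68 had 2.33 to 3.11 TPM in Amuc_0904 and 1.10 to 1.68 TPM in buffer libraries (limma adjusted p = 0.077). The 6 leukocyte genes summed to 5.31 to 5.95 TPM in Amuc_0904 and 3.75 to 4.89 TPM in buffer libraries. Summed marker levels were 7088 to 7377 TPM in Amuc_0904 and 7900 to 8142 TPM in buffer libraries for 7 epithelial genes, 1.71 to 2.22 and 2.32 to 3.76 TPM for 6 fibroblast genes, 0.16 to 0.54 and 0.25 to 0.80 TPM for 4 endothelial genes, and 0.97 to 1.85 and 0.91 to 1.03 TPM for 4 platelet genes that include ITGA2B. In bulk RNA such as this, fewer cells of a kind and less RNA per cell cannot be told apart.

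In cells given Amuc_0904, 3 integrin chains (ITGA7, ITGB5 and ITGB4) and the laminin chain LAMA5 fell to between 0.619 and 0.708 times their buffer levels. Each was fitted with limma on log2(TPM + 1) over 14421 genes, with Benjamini-Hochberg adjusted p under 0.05 as the threshold. Of the 18 chains 4 fell (0.999% of all tested genes did) and 14 did not pass. In either direction 197 genes passed over the whole table, which is 1.37% of those tested. The median log2 fold change was -0.09 over the 18 chains and -0.06 over all tested genes. Treated libraries lay wholly above the buffer libraries for 2 chains (7.0% of all tested genes) and wholly below them for 6 (20.1% of all tested genes).

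**Figure D1:**
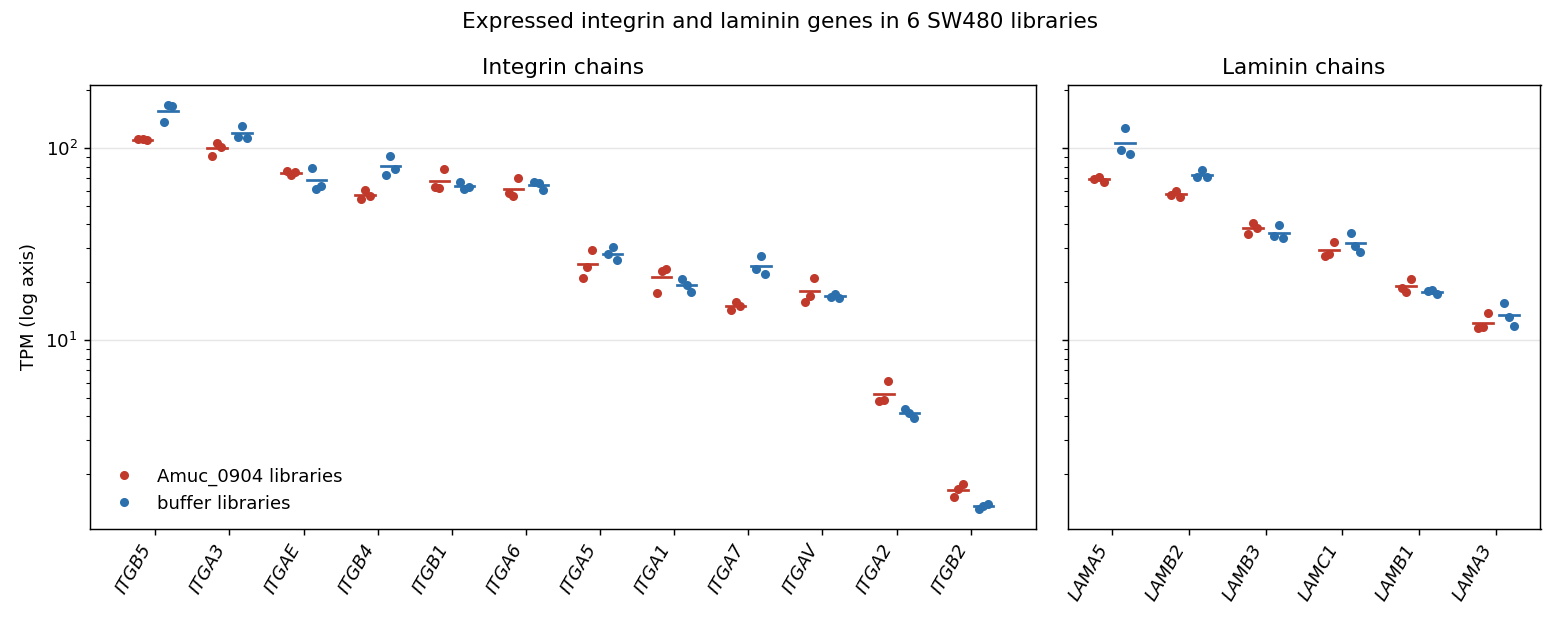
TPM on a log axis of the 18 expressed chains, ordered by mean level within integrins and within laminins. Each point is a library, Amuc_0904 in red and buffer in blue, and the horizontal line is the group mean. Levels run from about 1.36 TPM for ITGB2 in buffer to 156 TPM for ITGB5 in buffer. LAMA5 and LAMB2 are the plotted laminin chains with all treated points below their buffer points.

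Promoter sequence is shown for 4 chains: LAMA5 and ITGB5, which both fell, and LAMA3 and LAMB3, which share a laminin trimer and did not pass. Each window holds the 250 bases before a RefSeq transcript start, read on the gene's own strand. Of the 18 expressed chains 14 had at least 1 such window, and ITGA3, ITGA7, ITGB2 and ITGB4 were not among them. In capitals are matches, on either strand, to a GC box (GGGCGG, bound by Sp1-type factors), an AP-1 element (TGANTCA) or an NF-kB element (GGGANNNNCC), and in these 4 windows no match overlaps another.
LAMA5 (GRCh38.p14, chr20:62367313-62367562, minus strand): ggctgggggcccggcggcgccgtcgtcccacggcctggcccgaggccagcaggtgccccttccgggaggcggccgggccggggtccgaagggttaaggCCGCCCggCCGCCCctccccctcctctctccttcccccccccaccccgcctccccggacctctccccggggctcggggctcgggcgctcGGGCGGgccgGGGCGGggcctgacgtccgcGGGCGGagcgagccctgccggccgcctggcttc
ITGB5 (GRCh38.p14, chr3:124901419-124901668, minus strand): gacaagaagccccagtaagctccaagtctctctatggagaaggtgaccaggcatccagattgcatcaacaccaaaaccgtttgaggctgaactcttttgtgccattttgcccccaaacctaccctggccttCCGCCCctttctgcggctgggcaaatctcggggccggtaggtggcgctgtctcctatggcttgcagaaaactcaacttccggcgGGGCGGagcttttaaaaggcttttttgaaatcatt
LAMA3 (GRCh38.p14, chr18:23872770-23873019, plus strand): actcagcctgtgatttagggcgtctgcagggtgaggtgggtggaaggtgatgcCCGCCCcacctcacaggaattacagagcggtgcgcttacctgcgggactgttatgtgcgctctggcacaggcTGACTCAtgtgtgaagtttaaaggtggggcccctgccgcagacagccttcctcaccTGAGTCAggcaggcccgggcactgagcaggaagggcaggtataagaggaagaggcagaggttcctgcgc
LAMB3 (GRCh38.p14, chr1:209651375-209651624, minus strand): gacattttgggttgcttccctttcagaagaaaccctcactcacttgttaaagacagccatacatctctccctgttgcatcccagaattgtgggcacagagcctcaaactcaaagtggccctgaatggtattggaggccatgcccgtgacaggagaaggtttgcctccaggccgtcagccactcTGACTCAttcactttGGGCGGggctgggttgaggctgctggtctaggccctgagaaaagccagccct

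The LAMA5 window held 5 GC boxes and was 82.8% G and C, against a median of 58.0% over 35116 promoter windows. The ITGB5 window held 2 GC boxes at 52.8% G and C. A GC box occurred in 42.6% of all windows. LAMA3 held 2 AP-1 elements, and LAMB3 held 1 in this window and none in its other windows, while 6.57% of all windows held at least 1. The other chains with a window held none, whether they fell or not. None of the 4 windows held the NF-kB element, which 22.6% of all windows held. ITGB5 and LAMB3 have 2 further windows each, at other starts. Those of ITGB5 held 0 and 3 GC boxes and 0 and 1 NF-kB elements. Those of LAMB3 held 1 GC box each and 2 and 3 NF-kB elements. These LAMB3 windows overlap, and the GC box and 2 of the NF-kB elements are the same bases in both. These matches describe the letters of the windows only.

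Among the laminins, LAMA3 and LAMB3 encode the alpha 3 and beta 3 chains, which join in the laminin that anchors epithelia to the basement membrane. LAMB3 had 35.78, 40.69 and 38.34 TPM in Amuc_0904 libraries, against 34.87, 39.56 and 33.98 TPM in buffer libraries. LAMA3 had 11.54, 11.63 and 13.81 TPM in Amuc_0904 libraries, against 15.50, 13.09 and 11.79 TPM in buffer libraries. Both overlapped between groups and did not pass. The log2 fold change was 0.08 for LAMB3 (95% interval -0.11 to 0.27, limma adjusted p = 0.62) and -0.11 for LAMA3 (95% interval -0.39 to 0.16, limma adjusted p = 0.63).

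LAMC1 encodes the gamma 1 chain of most other laminins. It had 27.51, 28.01 and 32.34 TPM in Amuc_0904 libraries, against 36.24, 30.82 and 28.59 TPM in buffer libraries. The groups overlapped, and LAMC1 did not pass (log2 fold change -0.12, 95% interval -0.36 to 0.12, limma adjusted p = 0.57).

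LAMA5 encodes the alpha 5 chain, the main laminin alpha chain of adult epithelial basement membranes. It had 68.95, 70.52 and 66.40 TPM in Amuc_0904 replicates 1 to 3, against 98.13, 127.19 and 93.30 TPM in buffer replicates 1 to 3. The treated libraries were close together and below each buffer library, while buffer replicate 2 was far above the other two. LAMA5 fell to 0.646 times its buffer level (log2 fold change -0.61, SE 0.11, limma adjusted p = 0.044). Without buffer replicate 2 the log2 fold change was -0.47 (adjusted p = 0.060).

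LAMB2 and LAMB1 encode the beta chains that pair with alpha 5. LAMB2 had 56.61, 60.03 and 55.31 TPM in Amuc_0904 libraries, against 70.27, 76.77 and 70.38 TPM in buffer libraries. All treated libraries were lower, but LAMB2 just missed the threshold (log2 fold change -0.33, SE 0.07, limma adjusted p = 0.053). LAMB1 had 18.74, 17.86 and 20.71 TPM in Amuc_0904 libraries, against 17.96, 18.10 and 17.25 TPM in buffer libraries, and did not pass (log2 fold change 0.10, limma adjusted p = 0.55). Summed over the 5 alpha genes, laminin transcripts held 81.2 ± 0.998 TPM in Amuc_0904 and 120 ± 18.8 TPM in buffer libraries. The 4 beta genes together held 115 ± 3.73 TPM in Amuc_0904 and 126 ± 7.01 TPM in buffer libraries. LAMA5 was the most abundant of the laminin chains described in each library.

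Among the integrins that bind laminin, ITGA7 and ITGB4 fell. ITGA7 encodes the alpha 7 chain, best known as a laminin receptor of muscle. It had 14.24, 15.72 and 15.11 TPM in Amuc_0904 replicates 1 to 3, against 23.31, 27.42 and 22.12 TPM in buffer replicates 1 to 3. The groups did not overlap, and ITGA7 had the largest fall in log2 fold change of the 18 chains, to 0.619 times its buffer level (log2 fold change -0.65, SE 0.10, limma adjusted p = 0.024). ITGB4 encodes the beta 4 chain, which pairs only with alpha 6 and builds hemidesmosomes. It had 54.11, 60.28 and 56.16 TPM in Amuc_0904 libraries, against 72.06, 91.01 and 77.78 TPM in buffer libraries. Every treated library was below every buffer library, but the call was marginal (log2 fold change -0.49, SE 0.09, limma adjusted p = 0.0497).

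The other laminin-binding chains did not pass. ITGA6 encodes the alpha 6 partner of beta 4 and had 58.07, 56.39 and 69.63 TPM in Amuc_0904 libraries, against 66.72, 65.76 and 60.43 TPM in buffer libraries. These groups overlapped (log2 fold change -0.07, 95% interval -0.28 to 0.14, limma adjusted p = 0.70). ITGA3 encodes the alpha 3 chain, which with beta 1 binds laminins with alpha 3 or alpha 5 chains. ITGA3 had 90.56, 106.52 and 101.46 TPM in Amuc_0904 libraries, against 114.34, 130.84 and 112.68 TPM in buffer libraries, without overlap (log2 fold change -0.26, limma adjusted p = 0.14). ITGB1, the beta chain shared by most of these receptors, had 62.80, 61.59 and 77.69 TPM in Amuc_0904 libraries, against 66.76, 60.89 and 62.81 TPM in buffer libraries. Treated replicate 3 was high and the other treated libraries lay within the buffer range (log2 fold change 0.08, 95% interval -0.14 to 0.30, limma adjusted p = 0.69).

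ITGB5 had the highest mean level of the 37 genes. It encodes the beta 5 chain, which joins alpha V in a receptor for vitronectin. ITGB5 had 111.52, 110.99 and 109.65 TPM in Amuc_0904 replicates 1 to 3, against 136.49, 167.40 and 165.09 TPM in buffer replicates 1 to 3. The treated values were nearly equal and below all buffer values, among which replicate 1 was lowest. ITGB5 fell to 0.708 times its buffer level (log2 fold change -0.49, SE 0.08, limma adjusted p = 0.036). ITGAV, its alpha partner, had 15.83, 16.94 and 20.97 TPM in Amuc_0904 libraries, against 16.76, 17.29 and 16.48 TPM in buffer libraries. The groups overlapped and ITGAV did not pass (log2 fold change 0.07, 95% interval -0.17 to 0.32, limma adjusted p = 0.74). The other beta chains that can join alpha V were below expression, apart from ITGB1: ITGB3, ITGB6 and ITGB8 reached at most 0.06, 0.75 and 0.44 TPM.

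The collagen and fibronectin receptor chains did not pass. ITGA2, the collagen-binding alpha 2 chain, had 4.81, 4.84 and 6.12 TPM in Amuc_0904 libraries, against 4.36, 4.18 and 3.94 TPM in buffer libraries. The treated libraries were all higher, by a margin that did not pass (log2 fold change 0.27, 95% interval -0.01 to 0.56, limma adjusted p = 0.26). ITGA1, the other collagen-binding chain expressed, had 17.53, 22.96 and 23.41 TPM in Amuc_0904 libraries, against 20.72, 19.35 and 17.87 TPM in buffer libraries. ITGA5, the fibronectin-binding alpha 5 chain, had 21.11, 24.11 and 29.31 TPM in Amuc_0904 libraries, against 28.08, 30.34 and 26.03 TPM in buffer libraries. Both genes overlapped between groups, with log2 fold changes of 0.13 and -0.18 (limma adjusted p = 0.59 and 0.42).

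Of the integrin chains named for leukocytes, ITGAE and ITGB2 were expressed. ITGAE, whose alpha E chain pairs with beta 7 and binds E-cadherin, had 75.87, 72.78 and 74.69 TPM in Amuc_0904 libraries, against 78.65, 61.46 and 63.70 TPM in buffer libraries. The groups overlapped (log2 fold change 0.14, limma adjusted p = 0.44). ITGAE was thus among the most abundant alpha chains, while its known partner ITGB7 reached at most 0.65 TPM. HASPIN lies within ITGAE on the other strand and stayed between 8.30 and 9.06 TPM. ITGB2, the common beta chain of leukocyte integrins, averaged 1.66 ± 0.137 TPM in Amuc_0904 and 1.36 ± 0.0361 TPM in buffer libraries (log2 fold change 0.17, limma adjusted p = 0.52), and none of its alpha partners ITGAL, ITGAM, ITGAX and ITGAD met the expression rule. The summed level of the 6 leukocyte markers was 5.31 to 5.95 TPM in Amuc_0904 and 3.75 to 4.89 TPM in buffer libraries, and its part in the ITGB2 values was not tested.

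**Figure D2:**
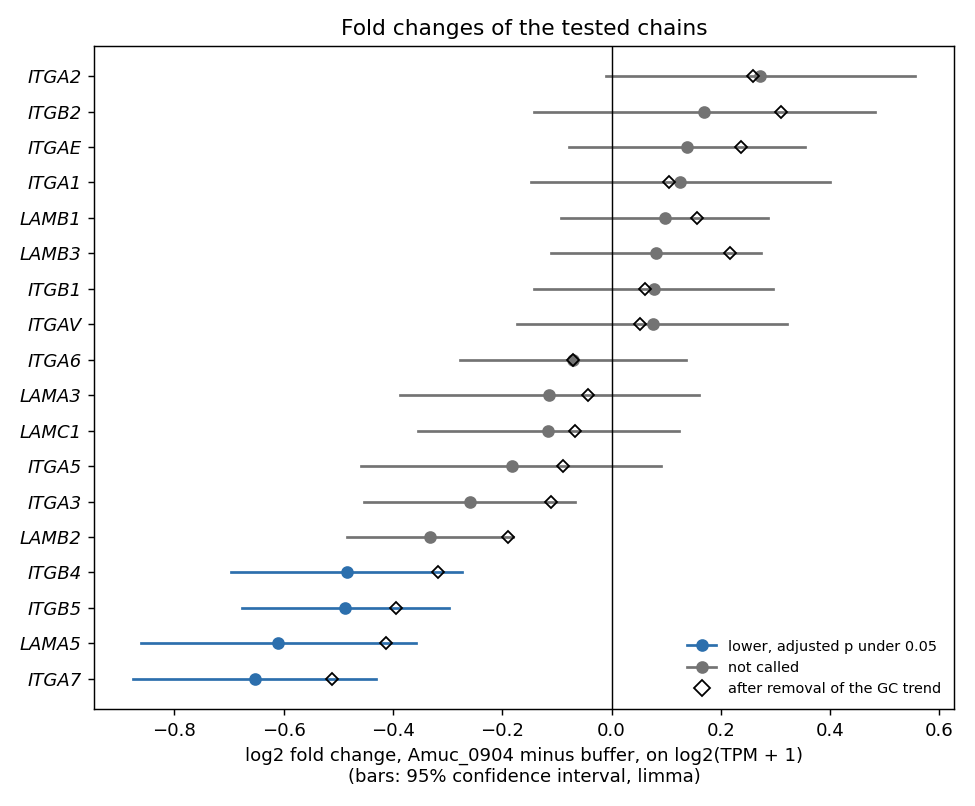
Log2 fold change of each tested chain, Amuc_0904 minus buffer on the log2(TPM + 1) scale, with its 95% confidence interval from limma. Blue marks the 4 chains that fell and grey the rest, and the open diamonds show the same value after the trend with transcript GC content was removed. The diamonds of ITGB4, ITGB5, LAMA5 and ITGA7 lie nearer to 0 than the circles.

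Related chains, either partners in a complex or alternatives to each other, could be compared within a library, which removes any scaling shared by the library. These pairs were chosen after the values were seen and carry no test. ITGB4 over ITGA6 averaged 0.936 ± 0.131 in Amuc_0904 and 1.25 ± 0.155 in buffer libraries, so ITGB4 was on average the more abundant of the pair in buffer and the less abundant under treatment. ITGB5 over ITGAV averaged 6.28 ± 0.939 in Amuc_0904 and 9.28 ± 0.999 in buffer libraries. LAMB2 over LAMB1 averaged 3.02 ± 0.345 and 4.08 ± 0.164, and LAMA5 over LAMA3 averaged 5.62 ± 0.701 and 7.99 ± 1.69, in the same order of groups. ITGA7 over ITGA6, which both bind laminin with beta 1, averaged 0.247 ± 0.0309 in Amuc_0904 and 0.377 ± 0.0352 in buffer libraries. None of these 5 ratios overlapped between groups, though ITGB4 over ITGA6 came close (1.069 in Amuc_0904 replicate 2, 1.080 in buffer replicate 1). How often other gene pairs do not overlap was not computed. In each pair the numerator had the GC-richer transcript: LAMA5 66.4% against LAMA3 50.7%, LAMB2 60.3% against LAMB1 49.5%, ITGB5 54.3% against ITGAV 38.3%. ITGB4 (63.7%) and ITGA7 (60.2%) stood against ITGA6 (42.9%). A GC trend does not cancel in such ratios, and its part was not tested. ITGA2 over ITGB1 did not overlap either and was higher in the treated libraries, at 0.078 ± 0.00121 in Amuc_0904 and 0.0656 ± 0.00297 in buffer libraries. ITGA3 over ITGB1 overlapped (1.49 ± 0.216 in Amuc_0904 and 1.89 ± 0.232 in buffer libraries), as did ITGAE over ITGB7, whose denominator was under 1 TPM.

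**Figure D3:**
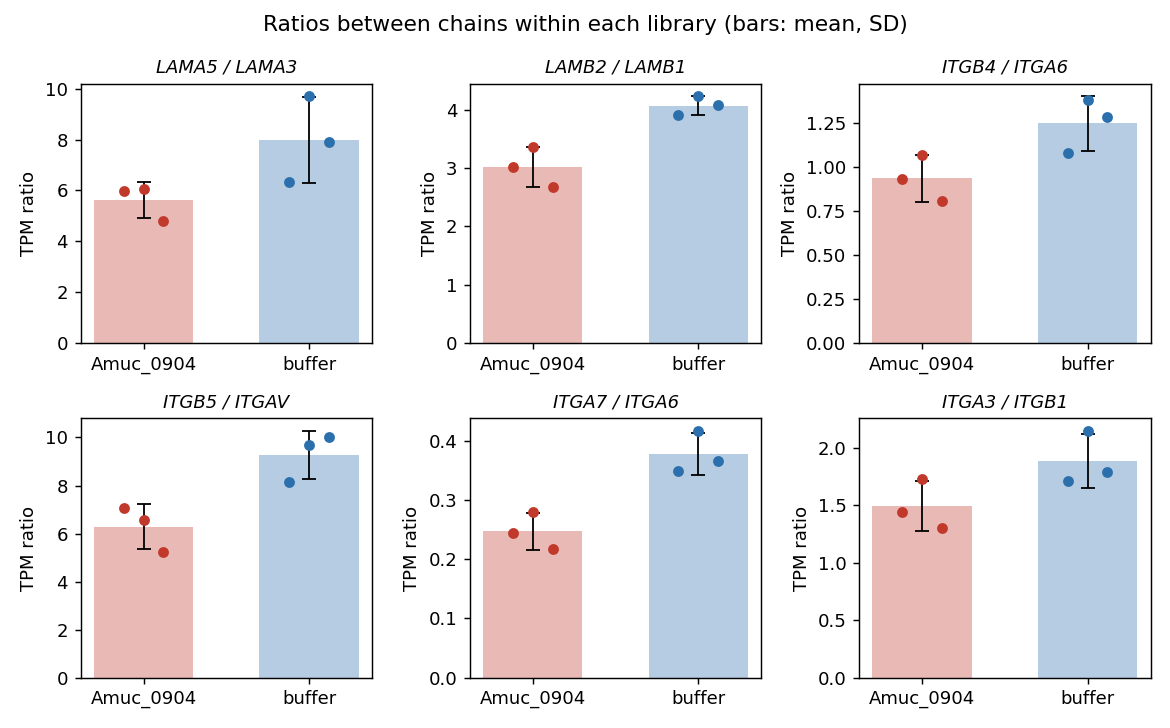
Ratio of TPM between chains of related complexes in each library, for 6 pairs. Points are libraries, bars the group mean from 0 and error bars the SD over 3 libraries. In the Amuc_0904 libraries LAMA5, LAMB2, ITGB4, ITGB5 and ITGA7 are lower relative to the chain they are divided by, while the points of ITGA3 over ITGB1 overlap.

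Transcript GC content moved with these results. Of the 4 chains that fell, LAMA5 (66.4% G and C in its longest transcript), ITGB4 (63.7%) and ITGA7 (60.2%) were above 60% and ITGB5 was at 54.3%. The median over all tested genes was 49.2%. Among the 2165 tested genes with at least 60% GC the median log2 fold change was -0.21 and 2.86% fell, while among the 3249 genes below 42% the median was 0.04 and 0.0923% fell. Across the 18 chains, fold change and GC content had a Pearson correlation of -0.65, and across 14277 tested genes one of -0.35. The Spearman correlation over the 18 chains was -0.55. With the GC trend removed from each library, their Pearson correlation was -0.47. These points share their libraries, and the values are given as a description.

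With the GC trend removed from each library, ITGA7 kept its call, at a log2 fold change of -0.51 (limma adjusted p = 0.032). LAMA5, ITGB5 and ITGB4 kept their direction at -0.41, -0.39 and -0.32 without passing (limma adjusted p = 0.094, 0.068 and 0.085). After centring every library at its own median, again ITGA7 passed and the other 3 did not, at -0.53 for LAMA5, -0.41 for ITGB5 and -0.40 for ITGB4 (limma adjusted p from 0.079 to 0.096). Leaving out single libraries ended most calls. ITGA7 and LAMA5 passed only without buffer replicate 3, ITGB5 only without buffer replicate 1, and ITGB4 in none of the 6 (highest adjusted p = 0.092, 0.13, 0.14 and 0.15 in this order of genes).

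**Figure D4:**
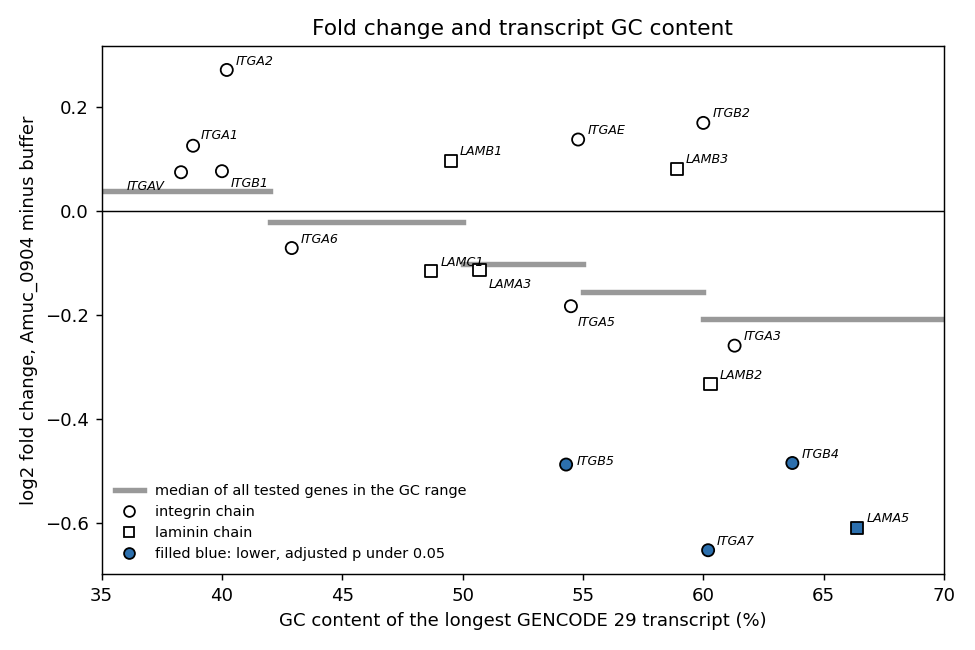
Log2 fold change of the 18 chains against the GC content of the longest GENCODE 29 transcript, with integrins as circles and laminins as squares. Grey bars give the median log2 fold change of all tested genes in 5 ranges of GC content, which goes from 0.04 below 42% to -0.21 at 60% and above (the outer ranges are drawn to 35% and 70%). LAMA5, ITGA7, ITGB4 and ITGB5 lie below the bar of their range. So do LAMB2, ITGA3, ITGA5, LAMA3, ITGA6 and LAMC1, which did not pass.

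Reads from overlapping genes could enter some of these values, since the strand protocol is not stated in the labels. ITGA7 (chromosome 12, 55684568 to 55716043) overlaps BLOC1S1 on the other strand, at 164 ± 21.0 TPM in Amuc_0904 and 173 ± 14.7 TPM in buffer libraries, and METTL7B, at 26.9 ± 1.72 and 32.4 ± 0.677 TPM without overlap between groups. LAMA5 (chromosome 20, 62307955 to 62367312) overlaps ADRM1, at 383 ± 43.6 TPM in Amuc_0904 and 396 ± 18.1 TPM in buffer libraries, and LAMA5-AS1, at 0 to 0.13 TPM in Amuc_0904 and 0.15 to 0.49 TPM in buffer libraries, which was too low to test. ITGB4 (chromosome 17, 75721328 to 75757818) overlaps GALK1, at 32.0 ± 4.94 and 32.2 ± 1.11 TPM. BLOC1S1-RDH5 also overlaps ITGA7 on the other strand, and its level is not given here. Of the 4 tested neighbours (BLOC1S1, METTL7B, ADRM1 and GALK1) 0 passed (lowest limma adjusted p = 0.11, for METTL7B). Of all tested genes 1.37% passed. ITGB5 lies on chromosome 3 from 124761948 to 124901418 and overlaps ITGB5-AS1, at 0.21 TPM or less.

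Genes that work beside integrins and laminins were read in 9 lists with 125 genes, of which 96 were tested. Over the lists 0 rose (0.368% of all tested genes did) and 4 fell (0.999% of all tested genes did). The median log2 fold change was -0.15 over the lists and -0.06 over all tested genes. Those that fell were the actin crosslinker ACTN4, the adhesion protein TNS4, the integrin ligand MFGE8 and CDH1, which encodes E-cadherin.

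In the list of adaptors that tie integrins to actin, 2 of 38 tested genes fell (0.999% of all tested genes did). In this list 0 rose and 36 did not pass (median log2 fold change -0.21). ACTN4 (alpha-actinin 4) had 803.33, 889.22 and 777.98 TPM in Amuc_0904 libraries, against 1066.83, 1262.49 and 1166.36 TPM in buffer libraries (log2 fold change -0.50, limma adjusted p = 0.031). TNS4 (a tensin of epithelial cells that binds integrin beta tails) had 50.83, 51.93 and 54.59 TPM in Amuc_0904 libraries, against 72.94, 83.63 and 71.74 TPM in buffer libraries (log2 fold change -0.53, limma adjusted p = 0.022). In these 2 genes the groups did not overlap, and both also passed with the GC trend removed. After centring TNS4 passed and ACTN4 did not (limma adjusted p = 0.036 and 0.089). ACTN4 passed only without buffer replicate 1 of the 6 single-library omissions, and TNS4 only without Amuc_0904 replicate 3 or buffer replicate 3 (highest limma adjusted p = 0.12 and 0.087). The most abundant other members were FLNA, ACTN1 and LIMS1, with log2 fold changes of -0.41, -0.29 and -0.04 and limma adjusted p of 0.060, 0.063 and 0.77.

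Among hemidesmosome genes 0 of 3 tested passed. PLEC, the plectin that links beta 4 to keratin, averaged 32.2 ± 2.52 TPM in Amuc_0904 and 45.2 ± 8.53 TPM in buffer libraries (limma adjusted p = 0.10). CD151 and DST had log2 fold changes of -0.14 and -0.09. Of 11 tetraspanins and other membrane partners 0 passed (median log2 fold change 0.07). The 4 most abundant were CD63, CD9, BSG and SLC3A2, with log2 fold changes of 0.07, 0.06, -0.15 and -0.21.

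Of 8 other basement membrane genes 0 passed, and all 8 had a negative log2 fold change, as did 62.5% of all tested genes (medians -0.22 and -0.06). COL18A1 averaged 41.2 ± 0.355 TPM in Amuc_0904 and 54.9 ± 6.15 TPM in buffer libraries, and AGRN (agrin, which binds laminin) averaged 74.8 ± 4.01 and 98.3 ± 12.03 TPM, with limma adjusted p of 0.059 and 0.077. TINAGL1 and COL4A2 had log2 fold changes of -0.19 and -0.21. COL18A1 and AGRN transcripts are 67.2% and 67.5% G and C, at the GC-rich end described above.

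In the list of other matrix ligands 1 of 11 tested genes fell (0.999% of all tested genes did) and 10 did not pass (median log2 fold change -0.29). MFGE8, which carries the RGD motif that alpha V integrins bind, had 18.69, 18.81 and 17.23 TPM in Amuc_0904 libraries, against 23.72, 24.91 and 24.85 TPM in buffer libraries (log2 fold change -0.41, limma adjusted p = 0.045). MFGE8 did not pass with the GC trend removed or after centring (limma adjusted p = 0.080 and 0.11), nor without any single library (limma adjusted p from 0.086 to 0.16). FN1 (fibronectin) averaged 30.3 ± 3.09 TPM in Amuc_0904 and 29.9 ± 1.98 TPM in buffer libraries. CCN1 and COL6A1 had log2 fold changes of -0.06 and -0.20 and did not pass.

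Of 5 tested counter-receptors on cell surfaces 1 fell (0.999% of all tested genes did) and 4 did not pass (median log2 fold change 0.22). CDH1, the ligand of the alpha E chain, had 3.78, 3.57 and 4.06 TPM in Amuc_0904 libraries, against 6.71, 8.33 and 5.99 TPM in buffer libraries (log2 fold change -0.73, limma adjusted p = 0.044). CDH1 did not pass with the GC trend removed or after centring (limma adjusted p = 0.054 and 0.062), nor without any single library (limma adjusted p from 0.059 to 0.14). ICAM1 and ICAM2, ligands of the leukocyte integrins, had log2 fold changes of 0.22 and 0.36 (limma adjusted p = 0.0997 and 0.051), with every treated library above every buffer library. F11R did not pass (log2 fold change -0.19).

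The remaining lists held no gene that passed. Among 6 laminin receptors other than integrins, SDC4 averaged 122 ± 4.40 TPM in Amuc_0904 and 98.1 ± 5.14 TPM in buffer libraries and SDC1 averaged 42.4 ± 1.42 and 52.4 ± 2.71 TPM (limma adjusted p = 0.056 and 0.069). RPSA and LGALS3 had log2 fold changes of 0.09 and 0.07. BCAM, named after its values were seen, averaged 18.25 ± 1.196 TPM in Amuc_0904 and 27.97 ± 4.51 TPM in buffer libraries without overlap. Its log2 fold change of -0.58 was the largest in size of these 6 (limma adjusted p = 0.053). Among 4 proteases that cut laminin chains, BMP1, which trims procollagens and laminin chains, averaged 6.10 ± 0.276 TPM in Amuc_0904 and 8.78 ± 0.339 TPM in buffer libraries, and MMP9 averaged 1.99 ± 0.259 and 0.717 ± 0.238 TPM (limma adjusted p = 0.056 and 0.057). MMP9 had 0.60, 0.99 and 0.56 TPM in buffer libraries and so met the 1 TPM filter through its Amuc_0904 libraries alone. MMP14 and MMP2 had log2 fold changes of -0.11 and -0.12. Among 10 trafficking genes, RAB11A, SNX17, HAX1 and NUMB had log2 fold changes of 0.25, -0.07, 0.11 and -0.05.

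With the GC trend removed, 6 genes of these lists rose (0.525% of all genes in that fit did) and 2 fell (0.35% did). Those that rose were the tetraspanin CD82, the leukocyte integrin ligands ICAM1 and ICAM2, the protease MMP9, the urokinase receptor PLAUR and the syndecan SDC4, and those that fell were ACTN4 and TNS4. CD82 and PLAUR were named after their values were seen. MMP9 met the 1 TPM filter through its Amuc_0904 libraries alone, so its rise is not independent of the filter.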

How the data were processed

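The authors deposited 1 table of TPM, which the series design text credits to RSEM. HISAT2, StringTie, edgeR and a mouse build (GRCm38.p6) stand in the submitters' processing notes too, with no role given, while the table's identifiers are human Ensembl genes. TPM keeps no read depth, so depth is unknown and no counting interval is given. Groups followed the treatment label. Each gene with TPM of at least 1 in 3 libraries (14421) was fitted on log2(TPM + 1) with limma 3.58.1 (trend, two-sided) in R 4.3.3, adjusted by Benjamini-Hochberg over all of them. Fold changes on this scale understate those of low genes. Of the genes matched by the symbol rule 1 is not reported here and is left out of the counts of chains. Integrins and laminins, the lists and the rule for naming genes (all listed chains; from each list the called genes and the 4 most abundant) were chosen with earlier results of these data known. GC content, positions and overlaps came from GENCODE 29, promoter windows from RefSeq (GRCh38.p14). Alternatives changed the pseudocount, filter, scaling, GC trend (loess, span 0.3), replicate block, threshold and libraries. Figures used matplotlib 3.10.9 in Python 3.11.15.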

Additional observations from a re-analysis of the deposited data

How the results depend on the processing

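Over all genes 197 passed. The count was 432 with a filter of 5 TPM, 125 with the GC trend removed, 118 with the length trend removed (an alternative added after the data were seen), 102 after quantile normalization, 85 after centring, 80 with a replicate block, 29 at an adjusted p of 0.01, 9 without a filter, and 33 to 110 without single libraries. The share of calls that fell was 73.1%, against 49.4% after centring, 54.9% after quantile normalization and 40.0% with the GC trend removed. The median log2 fold change was -0.06 and became 0.02 after centring. The 4 chains that fell became 5 with a filter of 5 TPM (LAMB2 added, adjusted p = 0.036), 3 with a pseudocount of 0.1 (ITGB4 lost, adjusted p = 0.053), 1 after centring, quantile normalization, GC removal, length removal or the block, 0 without a filter or at an adjusted p of 0.01, and 0 to 2 without single libraries. Same-numbered libraries did not deviate together (correlations of -0.029, 0.075 and -0.094), so the replicate block, under which ITGA7 had an adjusted p of 0.0495, is given only here. Of the list genes 0 rose, against 3 with a filter of 5 TPM, 6 with GC removed, 2 with length removed and 0 to 1 without single libraries. The 4 that fell became 12 with that filter, 2 after quantile normalization or GC removal, 1 after centring, length removal or the block, 0 without a filter or at an adjusted p of 0.01, and 0 to 1 without single libraries. Uncalled chains changed sign 4 times: ITGA6 to 0.009 after centring and 0.007 with length removed, and, without Amuc_0904 replicate 3, ITGB1 to -0.028 and ITGAV to -0.038 (highest without another library 0.137 and 0.154). Without a filter 30992 genes share both the adjustment and the variance trend of the fit, and the 2 were not separated. The cause of the changes between alternatives was not tested.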
